A study of Mus musculus with 9 samples.

Results

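The genes described here are 10 genes of resident macrophages and of apoptotic cell uptake: the macrophage surface gene Adgre1, the transcription factor gene Spic, the secreted scavenger protein gene Cd5l, the lectin gene Cd209b, the phosphatidylserine receptor gene Timd4, the receptor kinase genes Axl, Mertk and Tyro3, and the bridging protein genes Gas6 and Mfge8. They were chosen by name, and all 10 were found among the 18193 genes that have a probe set of their own on the array. RNA came from CD11b+ cells of C57BL/6 mouse spleens, selected with magnetic beads from the adherent cells. The labels also call these cells monocytes. The HighThreat group consisted of 6 mice exposed repeatedly to social threat, with 1 Affymetrix MOE430 array per mouse. The LowThreat group consisted of 6 mice kept under non-threatening conditions, whose RNA was pooled by 2 into 3 control arrays, numbered 1-2, 3-4 and 5-6. The labels give neither sex nor age, nor how the threat was applied, and no batch, and the array file numbers run on from the control pools to the threat mice, so that array order and group cannot be told apart.

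Dying cells are cleared by phagocytes that recognise phosphatidylserine, a lipid that cells expose on their surface when they die. TIM-4, the product of Timd4, binds this lipid directly. The kinases TYRO3, AXL and MERTK, together called the TAM receptors, bind it through the soluble bridging protein GAS6. Some of them also bind it through protein S, and integrins bind it through MFG-E8. In the mouse spleen, red pulp macrophages depend on the transcription factor SPI-C and carry the surface receptor encoded by Adgre1, while macrophages of the marginal zone carry the lectin SIGN-R1, the product of Cd209b. CD5L, also known as AIM, is secreted by resident macrophages.

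Upstream sequences are shown for Timd4 and Mertk, which were both lower in threat mice, and for Cd5l, which did not pass the test. They lie just before the gene in RefSeq's GRCm38.p6 table, at chr11:46810549-46810785 (plus strand), chr2:128698665-128698914 (plus strand) and chr3:87357631-87357880 (plus strand). Capitals mark matches, on either strand, to the PU box GAGGAA, which PU.1 and related ETS factors bind, or to the GC box GGGCGG.
Timd4: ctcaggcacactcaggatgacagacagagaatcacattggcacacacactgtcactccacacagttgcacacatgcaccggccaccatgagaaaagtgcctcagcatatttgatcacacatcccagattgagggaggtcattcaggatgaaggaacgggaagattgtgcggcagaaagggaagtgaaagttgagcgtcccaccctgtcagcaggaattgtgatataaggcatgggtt
Mertk: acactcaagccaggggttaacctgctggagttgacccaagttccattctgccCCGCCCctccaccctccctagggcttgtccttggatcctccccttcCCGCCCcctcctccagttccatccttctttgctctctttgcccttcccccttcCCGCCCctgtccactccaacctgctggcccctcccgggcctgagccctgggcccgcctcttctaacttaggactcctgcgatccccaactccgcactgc
Cd5l: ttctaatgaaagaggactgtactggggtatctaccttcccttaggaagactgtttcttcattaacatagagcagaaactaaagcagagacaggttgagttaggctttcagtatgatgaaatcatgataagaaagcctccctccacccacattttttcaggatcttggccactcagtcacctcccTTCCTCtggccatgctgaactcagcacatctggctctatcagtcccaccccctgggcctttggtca

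The Mertk sequence holds 3 GC boxes and no PU box, the Cd5l sequence holds 1 PU box and no GC box, and the Timd4 sequence holds neither. No match to the AP-1 site TGANTCA or to the cAMP response element TGACGTCA is present in any of them. Of all 32851 RefSeq windows of 250 bases, 23.3% hold a PU box, 32.7% a GC box, 6.75% an AP-1 site and 1.55% a cAMP response element. In windows of 237 bases, the length shown for Timd4, a PU box is present in 22.0% and a GC box in 30.9%. Matches of a motif that overlap were counted separately, and a match is a description of the letters only.

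Values are log2 expression values, so that a difference of 1 is a doubling, and they are set against each other only within a probe set. A gene was tested if its mean over all arrays reached 2.66, the 40th percentile of the probe sets that are not controls. Of the 10 genes, 9 were tested, and Gas6 lay under this value. Among these 9, Adgre1 was higher in threat mice, Timd4, Axl, Mertk and Mfge8 were lower, and Spic, Cd5l, Tyro3 and Cd209b did not pass (limma, Benjamini-Hochberg adjusted p under 0.05 over all 13078 genes tested). These 5 calls are 55.6% of the 9, against 45.8% called among all genes tested, 23.8% higher and 22.0% lower, so the share is near that of the background. The values of the groups did not overlap for the same 5 genes, Adgre1 with all threat values above the control values (21.5% of all genes tested) and the other 4 with all below (20.3%), against 41.8% of all genes tested in either direction. The median of the 9 was -0.12 on the log2 scale, beside 0.03 for all genes tested. Each of the 5 called genes also had a mean above the filter value in both groups.

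**Figure D1:**
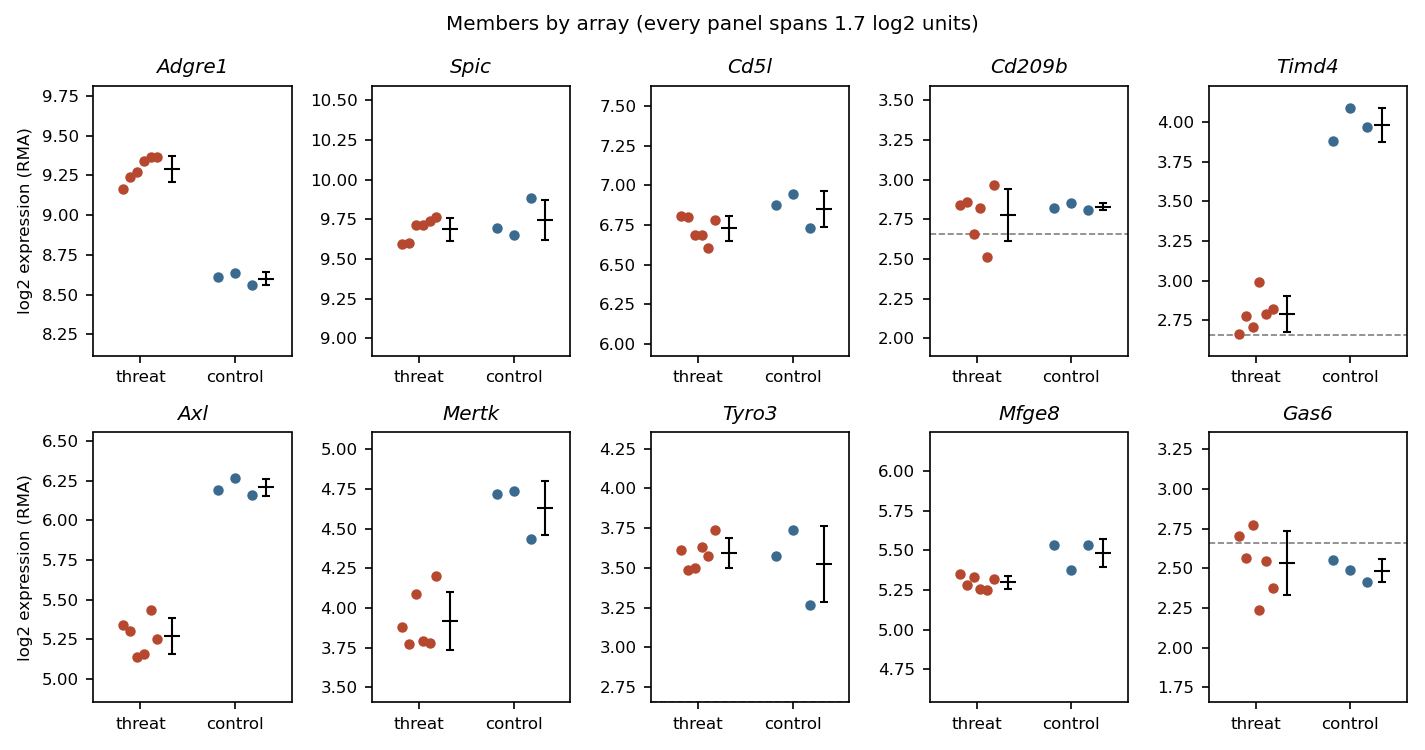
Log2 expression of the 10 genes on each array, with threat mice (red, n = 6) left of control pools (blue, n = 3). Points are in the order of the animal numbers, bars give the mean and SD, every panel spans the same number of log2 units, and the dashed line, where it falls in the panel, is the filter value of 2.66. Groups do not overlap for Adgre1, Timd4, Axl, Mertk and Mfge8.

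The product of Adgre1 is the surface protein by which mouse macrophages are usually recognised, and monocytes and eosinophils carry it as well. Adgre1 had a lowest value of 9.17, a median of 9.31 and a highest value of 9.37 in the 6 threat mice, against 8.61, 8.64 and 8.56 in control pools 1-2, 3-4 and 5-6. Every threat mouse lay above every control pool. Adgre1 averaged 9.29 ± 0.081 in threat mice (SD, n = 6) and 8.60 ± 0.040 in control pools (SD, n = 3), and it rose by 0.69 (SE 0.055, limma adjusted p = 5.79e-07). This is a 1.62-fold difference with a 95% interval of 1.49 to 1.76. Of all genes tested, 96.1% had a lower difference. Adgre1 is measured by a single probe set, so no other probe set could be compared. In these bulk samples a larger share of a cell type and more RNA per cell cannot be told apart, and the same holds for every difference below.

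Spic, Cd5l and Cd209b did not pass the test. SPI-C is the transcription factor that red pulp macrophages need for their development. Spic ranged over 9.59, 9.71 and 9.77 (lowest, median and highest) in threat mice, against 9.69, 9.65 and 9.885 in the control pools, and the groups overlapped. The difference was -0.06 (SE 0.063, limma adjusted p = 0.509), with a 95% interval of -0.19 to 0.08 that leaves out the rise seen for Adgre1. The second probe set of Spic differed by -0.01 (limma adjusted p = 0.89 over probe sets). Neither probe set is of the type specific to a single transcript, so signal of other transcripts may be included.

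CD5L is a secreted protein of the scavenger receptor family that keeps macrophages alive and binds lipids. Cd5l had values of 6.60, 6.74 and 6.81 (lowest, median and highest) in threat mice, against 6.88, 6.95 and 6.73 in control pools. Control pool 5-6 lay among the threat mice, below 3 of them, and the other pools lay above all 6. The difference was -0.12 (SE 0.063, limma adjusted p = 0.135), with a 95% interval of -0.26 to 0.01. The call depended on that pool and on the weighting of arrays: without control pool 5-6 Cd5l differed by -0.18 (limma adjusted p = 0.0412), and with estimated array weights by -0.16 (limma adjusted p = 0.0495).

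SIGN-R1 is a lectin with which marginal zone macrophages take up polysaccharides. Cd209b was dim, with values of 2.515, 2.83 and 2.96 (lowest, median and highest) in threat mice, against 2.82, 2.85 and 2.81 in control pools. The groups overlapped around the filter value, and the difference was -0.05 (SE 0.084, limma adjusted p = 0.648). Its second probe set lay under the filter, with means of 1.51 in threat mice and 1.75 in control pools, and was not tested.

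Among the receptors of apoptotic cells, TIM-4 tethers a dying cell by its phosphatidylserine, and in the mouse it is a marker of long-lived resident macrophages. Timd4 had values of 2.66, 2.78 and 2.995 (lowest, median and highest) in threat mice, against 3.88, 4.09 and 3.97 in control pools. All threat mice lay below all control pools. Timd4 averaged 2.79 ± 0.12 in threat mice (SD, n = 6) and 3.98 ± 0.105 in control pools (SD, n = 3), and it fell by 1.19 (SE 0.072, limma adjusted p = 5.02e-08). The threat values were close to the filter value of 2.66, where signal and background are hard to separate, so the size of this fall is approximate. Of all genes tested, 1.51% had a lower difference.

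AXL and MERTK are the TAM receptors of myeloid cells. In mouse macrophages AXL is known as the receptor that inflammatory signals induce, and MERTK as the one that tolerant, resting macrophages use. Axl had values of 5.14, 5.28 and 5.44 (lowest, median and highest) in threat mice, against 6.19, 6.27 and 6.16 in control pools. Every threat mouse was lower than every pool, by a wide margin compared with the spread inside either group. Axl averaged 5.27 ± 0.11 in threat mice (SD, n = 6) and 6.21 ± 0.055 in control pools (SD, n = 3), and it fell by 0.93 (SE 0.067, limma adjusted p = 2.11e-07). A second probe set of Axl read 1.05 in threat mice and 1.02 in control pools, under the filter on all arrays. When a gene's probe sets were averaged, the fall of Axl was therefore 0.45 (limma adjusted p = 8.57e-06).

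Mertk had values of 3.78, 3.84 and 4.202 (lowest, median and highest) in threat mice, against 4.72, 4.74 and 4.435 in control pools. The groups did not overlap, although threat mice 3 and 6, with 4.09 and 4.202, came nearer to control pool 5-6 than the other 4 did. Mertk averaged 3.92 ± 0.18 in threat mice (SD, n = 6) and 4.63 ± 0.17 in control pools (SD, n = 3), and it fell by 0.71 (SE 0.104, limma adjusted p = 1.10e-04). Its SD among threat mice was as large as or larger than that of 95.2% of the genes tested. The threat median of Mertk lay under the 60th percentile of the probe sets (3.87), so the size of its fall is approximate.

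TYRO3 is the third TAM receptor and is known mainly from the nervous system and dendritic cells. Tyro3 had values of 3.49, 3.59 and 3.74 (lowest, median and highest) in threat mice, against 3.58, 3.74 and 3.26 in control pools. The control pools spread more widely than the threat mice, and the groups overlapped. The difference was 0.07 (SE 0.090, limma adjusted p = 0.591), with a 95% interval of -0.13 to 0.26. This leaves out falls of the size seen for Axl and Mertk in the signal of this probe set. Its values lay under the 60th percentile of the probe sets (3.87), so background may hide a fall of Tyro3 itself. The other probe set of Tyro3 read 1.43 on 6 of 9 arrays, a repeated value under the filter, and was not tested.

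Whether members of the group changed by unequal amounts was tested for 2 pairs with an exact two-sided permutation test that used all 84 ways of choosing 6 of the 9 arrays. The differences of Mertk and Axl were 0.225 apart, a gap that the test did not call (exact p = 0.167, adjusted over the 2 pairs 0.167). The difference of Timd4 minus that of Adgre1 was -1.88. Because all threat values were below the control values for Timd4 and above them for Adgre1, that gap had to be the most extreme of the 84, and no p is given for it. Averaging probe sets, which brings in the dim one of Axl, turned the sign of the gap between Mertk and Axl to -0.26 (exact p = 0.131).

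**Figure D2:**
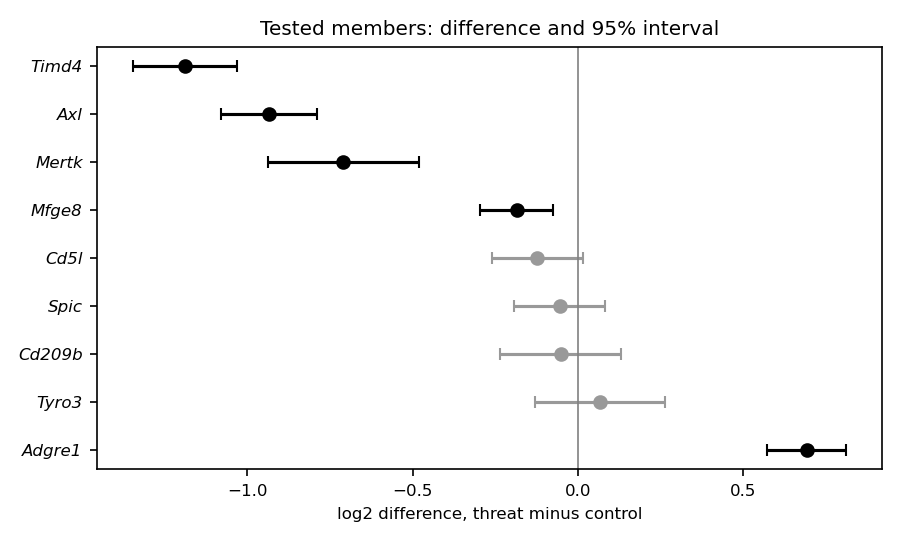
Log2 difference, threat minus control, of the 9 tested genes (points) with limma's 95% interval (bars), black where the adjusted p was under 0.05 and grey otherwise. Timd4, Axl and Mertk lie furthest below 0, with differences of -1.19, -0.93 and -0.71, Mfge8 lies near 0 at -0.18, and Adgre1 is the only one above 0 whose interval leaves out 0.

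The bridging proteins join phosphatidylserine to a receptor. MFG-E8 links it to integrins, and in the spleen both macrophages and follicular dendritic cells make it. Mfge8 had values of 5.25, 5.30 and 5.35 (lowest, median and highest) in threat mice, against 5.53, 5.38 and 5.54 in control pools. The groups were close, and control pool 3-4 lay just above the highest threat mouse. Mfge8 averaged 5.30 ± 0.040 in threat mice (SD, n = 6) and 5.48 ± 0.089 in control pools (SD, n = 3), and it fell by 0.18 (SE 0.051, limma adjusted p = 0.00985). The call was lost without control pool 1-2, where the difference was -0.16 (limma adjusted p = 0.0503).

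GAS6 activates all TAM receptors. Gas6 was measured by 2 probe sets, and both lay under the filter. The brighter one had values of 2.24, 2.555 and 2.77 (lowest, median and highest) in threat mice, against 2.55, 2.49 and 2.41 in control pools. The groups overlapped, and the means differed by 0.05. Gas6 was not tested in the main comparison, and with no filter its adjusted p was 0.765 (limma). No difference in Gas6 was detected.

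Genes outside the group with the most similar course over the 9 arrays were found by the root mean square difference of centred values. Nearest to Adgre1 were the RNA sensor gene Ddx58 (0.034 log2 units), the purine phosphorylase gene Pnp (0.042) and Trim21 (0.050), a cytosolic antibody receptor. Nearest to Axl were the coenzyme A synthesis gene Ppcs (0.048), the deadenylase gene Cnot6l (0.059) and Fem1c (0.060), a substrate receptor of a ubiquitin ligase. Nearest to Timd4 were the ribosome maturation gene Tsr1 (0.081), the kinase gene Map3k14 (0.100) and the transcription factor gene Klf10 (0.104). Nearest to Mertk were Pole4 (0.095), Gypc (0.097) and Sfn (0.107). The measure mostly reflects the size of the group difference, so it names genes that changed by a like amount.

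Markers of other cells were read on the same arrays, where 45.8% of all genes tested were called, 23.8% higher and 22.0% lower. Among the markers of CD11b+ myeloid cells 7 of 8 rose, among them Itgam, which encodes CD11b itself and rose by 0.57 (SE 0.051, limma adjusted p = 1.67e-06). Of 13 granulocyte markers 12 rose and none fell, and their mean per array was 10.27 to 10.69 in threat mice, against 8.92 to 9.10 in control pools. Of 10 dendritic cell markers 7 fell and none rose (6.38 to 6.43 in threat mice, against 7.20 to 7.30 in control pools). Of 10 B cell markers 9 fell (4.63 to 5.06, against 6.77 to 6.985), as did 6 of 7 natural killer cell markers (4.10 to 4.28, against 5.90 to 6.05) and 3 of 5 T cell markers (3.99 to 4.16, against 4.44 to 4.53). Of 10 monocyte markers 5 rose and 4 fell (8.92 to 8.99 in threat mice, against 8.56 to 8.72 in control pools). The 5 that rose were Hp (1.82), Vcan (1.64), Ifitm6 (1.63), F13a1 (0.77) and Treml4 (0.47). The 4 that fell were Cd36 (-1.68), Cx3cr1 (-0.68), Nr4a1 (-0.45) and Ace (-0.39), so the mean joins opposite movements. Cd36 is also among the uptake receptors below. Of 5 erythroid markers 1 rose (3.70 to 3.83, against 3.74 to 3.82), and of 8 markers of stroma, endothelium and follicular dendritic cells 2 rose and 1 fell (3.79 to 3.88, against 3.81 to 3.905). The part of these cells in the differences of Adgre1, Timd4, Axl, Mertk and Mfge8 was not tested.

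**Figure D3:**
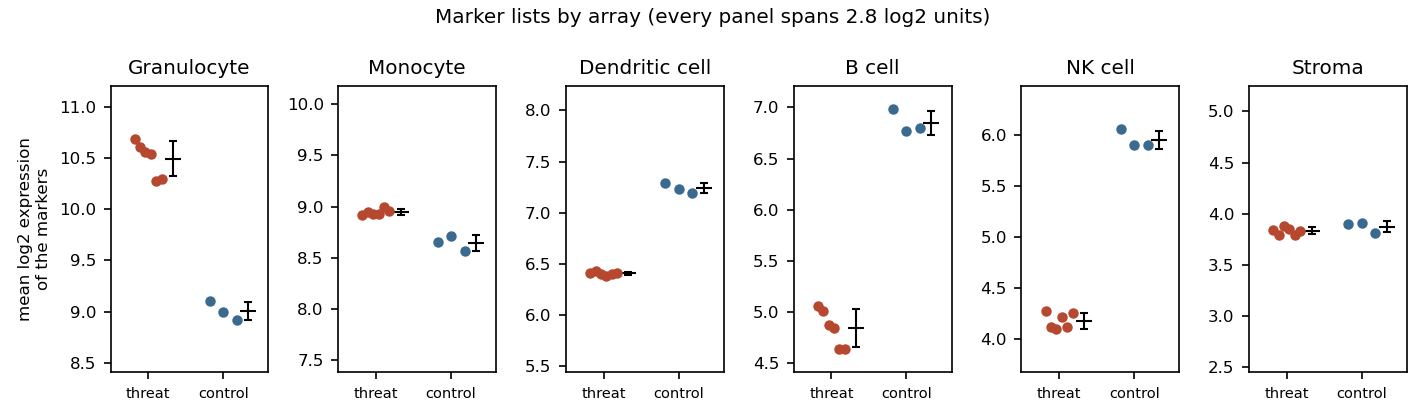
Mean log2 expression of the tested markers of 6 cell types on each array, with threat mice (red, n = 6) left of control pools (blue, n = 3), points in the order of the animal numbers, and bars for mean and SD. Every panel spans the same number of log2 units. Granulocyte and monocyte means are above those of the control pools in all threat mice, dendritic, B and natural killer cell means are below, and stromal means overlap.

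Inside the threat group, Adgre1 and the granulocyte markers ran in nearly opposite orders, given here as a description. Threat mouse 1 had the lowest Adgre1 value, 9.17, and the highest granulocyte mean, 10.69. Threat mice 5 and 6 had the highest Adgre1 values, 9.37 each, and the lowest granulocyte means, 10.27 and 10.30. Inside this group both orders also nearly follow the numbers of the animals, and Adgre1 increased with the number in all 6 threat mice. In control pools 1-2, 3-4 and 5-6 the granulocyte mean was 9.101, 9.001 and 8.922. Adgre1 was 8.61, 8.64 and 8.56 in the same pools, so it did not rise with the number there. Array file numbers follow the animal numbers, so the array order and the animal cannot be told apart. Between the groups, both measures were higher in threat mice. As a sign of RNA quality, the log2 difference between 3' and 5' probe sets of beta-actin, was 0.333 to 0.423 in threat mice and 0.405 to 0.529 in control pools (exact permutation p = 0.0238), and its part in any result was not tested.

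Other markers of splenic resident macrophages moved in both directions. Of 21 tested, 10 fell, 5 rose and 6 did not pass, with a median of -0.12. That is 71.4% called, beside 45.8% of all genes tested. The largest fall among those named was that of Hpgd, which breaks down prostaglandins and had 4.05, 4.30 and 4.36 (lowest, median and highest) in threat mice, against 6.66, 6.63 and 6.43 in control pools. It fell by 2.31 (SE 0.079, limma adjusted p = 5.28e-10) by its brighter probe set and by 0.36 by a dimmer one. Vcam1, the adhesion molecule that marks red pulp macrophages, fell by 0.96 (SE 0.083, limma adjusted p = 1.15e-06).

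The 5 markers that rose include Treml4, which is also in the list of monocyte markers, and Csf1r, which is also in that of CD11b+ myeloid cells. Maf, a transcription factor of macrophages, had 7.29, 7.40 and 7.49 (lowest, median and highest) in threat mice, against 5.86, 5.69 and 5.62 in control pools. It rose by 1.67 (SE 0.067, limma adjusted p = 1.72e-09), while its other probe sets differed by 0.78 and 0.13. The Fc receptor gene Fcgr1 rose by 0.83 (SE 0.088), the receptor gene Treml4 by 0.47 (SE 0.053), the iron exporter gene Slc40a1 by 0.28 (SE 0.058) and the growth factor receptor gene Csf1r by 0.19 (SE 0.048), with limma adjusted p between 6.66e-06 and 0.00651. All threat mice were above all control pools in each of these.

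The other receptors and bridging proteins of apoptotic cell uptake moved in both directions. Of 23 tested, 9 rose, 10 fell and 4 did not pass (82.6% called, beside 45.8% of all genes tested), with a median of -0.004. CD36, a scavenger receptor that binds oxidised lipids on dying cells, had a threat median of 7.285 (7.07 to 7.52), against 8.92, 9.04 and 8.965 in control pools. Cd36 fell by 1.68 (SE 0.096, limma adjusted p = 2.92e-08), and its other probe sets differed by -1.7 and -1.305. Its bridging partner Thbs1 fell by 0.97 (SE 0.066, limma adjusted p = 1.24e-07), and the galectin gene Lgals3, whose product is a reported ligand of MERTK, fell by 0.13 (SE 0.041, limma adjusted p = 0.0232). The call of Lgals3 was lost without control pool 1-2 (limma adjusted p = 0.0516), without control pool 3-4 (0.0695) and with quantile normalization (0.122). The 7 other genes that fell, named here to complete the list and not by the rule, were the T cell immunoglobulin receptor gene Havcr2 (-0.89), C1qbp (-0.70), the phosphatidylserine receptor gene Stab2 (-0.59), the integrin genes Itgb3 (-0.46) and Itgav (-0.21), whose products join as a receptor for MFG-E8, Cd300a (-0.32) and the calreticulin gene Calr (-0.19), with limma adjusted p between 5.19e-07 and 0.021. The call of Itgav was lost without control pool 3-4 (-0.17, limma adjusted p = 0.0973) and with averaged probe sets.

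Those that rose were led by Trem2, a lipid receptor of macrophages, with 5.90, 6.01 and 6.035 (lowest, median and highest) in threat mice, against 4.72, 4.81 and 4.74 in control pools. Trem2 rose by 1.22 (SE 0.050, limma adjusted p = 1.81e-09), but a second, dimmer probe set differed by 0.14 and did not pass (limma adjusted p = 0.368 with single-transcript probe sets preferred). Anxa1, whose product annexin A1 is exposed on dying cells and dampens inflammation, rose by 1.01 (SE 0.073). The endotoxin co-receptor gene Cd14 rose by 0.58 (SE 0.044), the integrin gene Itgb5, whose product pairs with that of Itgav, by 0.73 (SE 0.073), and the lipoprotein receptor gene Scarb1 by 0.65 (SE 0.065). Smaller rises were those of the phosphatidylserine receptor gene Stab1 by 0.41 (SE 0.075), of Cd300lf by 0.34 (SE 0.059), of the receptor gene Lrp1 by 0.37 (SE 0.108), whose groups overlapped and whose call was lost without control pool 1-2 (limma adjusted p = 0.0601) or 5-6 (0.0686), and of Pros1 by 0.39 (SE 0.077). Pros1 encodes protein S, a bridging protein of some of the TAM receptors. It had 4.695 to 4.95 in threat mice, against 4.65, 4.45 and 4.31 in control pools.

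Downstream of the receptors, of 21 tested genes for cytoskeletal engulfment and for breakdown of the engulfed cell, 5 rose, 3 fell and 13 did not pass, which is 38.1% called, beside 45.8% of all genes tested. Rab7, which drives fusion with lysosomes, fell by 0.27 (SE 0.043, limma adjusted p = 2.04e-04) and Rubcn, which directs the LC3 protein to phagosomes, by 0.52 (SE 0.084, limma adjusted p = 2.30e-04). Vav1, an activator of RAC proteins, fell by 0.11 (SE 0.042, limma adjusted p = 0.0447), but this call was lost in 14 of 22 alternatives, among them the fit with the number pair as a replicate block (limma adjusted p = 0.065) and the fits without any 1 of the threat mice or without control pool 1-2 or 3-4 (limma adjusted p = 0.0525 to 0.135). Abca7 rose by 0.28 (SE 0.052) and the oxidase gene Cybb by 0.25 (SE 0.061).

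Of 16 tested genes for the signals of dying cells, for do-not-eat signals and for the lipid response after uptake, 10 fell, 3 rose and 3 did not pass (81.2% called, beside 45.8% of all genes tested), with a median of -0.315. The cholesterol exporter gene Abcg1, a target of the nuclear receptor LXR, had 7.48, 7.52 and 7.58 (lowest, median and highest) in threat mice, against 8.34, 8.43 and 8.44 in control pools. It fell by 0.87 (SE 0.046, limma adjusted p = 1.40e-08). The sphingosine phosphate receptor gene S1pr1, which lymphocytes also express, fell by 1.44 (SE 0.085). Xkr8, a scramblase that exposes phosphatidylserine in dying cells, rose by 1.36 (SE 0.086, limma adjusted p = 6.93e-08), with control values of 3.26, 2.87 and 3.26 near the filter. The do-not-eat receptor gene Sirpa rose by 0.21 (SE 0.055) and its ligand gene Cd47 by 0.15 (SE 0.049), although another bright probe set of Cd47 was lower, at -0.33 (limma adjusted p = 0.007 over probe sets), and the call was lost without control pool 5-6 (0.10, limma adjusted p = 0.116).

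Of 10 tested signalling partners and sheddases of the TAM receptors, 4 rose, 1 fell and 5 did not pass, with a median of 0.12, so that 5 of 10 were called, beside 45.8% of all genes tested. Socs3, an inhibitor of cytokine signalling that TAM receptors induce in mouse dendritic cells, had 9.98, 10.04 and 10.16 (lowest, median and highest) in threat mice, against 9.13, 9.17 and 9.15 in control pools, and it rose by 0.90 (SE 0.052, limma adjusted p = 3.05e-08). The related gene Socs1, named here outside the rule, differed by 0.05 with overlapping groups (SE 0.051, limma adjusted p = 0.435). Ifnar1, the interferon receptor chain with which AXL signals, rose by 0.27 (SE 0.049, limma adjusted p = 5.61e-04), a call that was lost when its probe sets were averaged (0.03, limma adjusted p = 0.814). The sheddase gene Adam17, named here outside the rule, rose by 0.30 (SE 0.058, limma adjusted p = 9.44e-04), a call kept in all 22 alternatives. Vkorc1, also named outside the rule, rose by 0.18 (limma adjusted p = 0.044), a call that was lost in 11 of 22 alternatives. Pik3r1, a regulatory subunit of phosphoinositide 3-kinase, fell by 0.78 (SE 0.051, limma adjusted p = 8.62e-08).

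**Figure D4:**
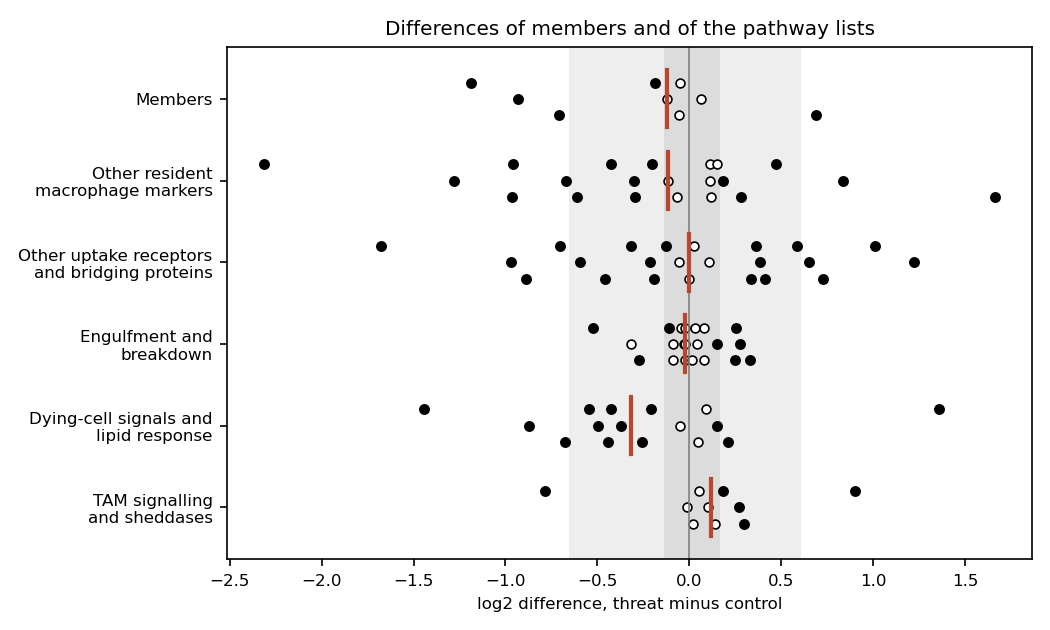
Log2 difference, threat minus control, of each tested gene (points) in the group of 10 genes and in the 5 related lists, filled where the adjusted p was under 0.05, with the list's median as a red line. Dark and light grey bands span the middle parts of all 13078 genes tested (quartiles, and 5th to 95th percentile). Medians were -0.12 for the members, -0.12 for resident macrophage markers, -0.004 for uptake receptors, -0.02 for engulfment, -0.315 for signals and lipid response and 0.12 for TAM signalling.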

How the data were processed

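Expression was measured on 9 arrays. The deposited values are log2 expression values, made by the authors (RMA is the tool that the submitters' processing notes name, without version or settings); the log base was taken from the values (0.607 to 13.567). Array medians were 3.19 to 3.22. RMA gives no detection call, so signal near the filter value cannot be told from background, and the number of arrays limits the precision.

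Probe sets were named from the platform's annotation, updated through Entrez numbers to a RefSeq table (GRCm38.p6). Probe sets with several genes were left out. The probe set with the highest mean stood for a gene. Threat minus control was fitted with limma 3.58.1 in R 4.3.3 (lmFit, eBayes, no covariates) on 13078 genes, two-sided, with Benjamini-Hochberg adjustment at 0.05. SE is limma's moderated standard error. On simulated data with 13078 genes, 50 genes were changed at each size. Of these, 32% of changes of 0.25, 90% of 0.5 and 100% of 1 were recovered, with 11 false calls. In the data 5995 genes were called, so the recovery rates need not hold for this comparison. Alternatives concerned filter, probe set, normalization, variance model, weights, pairing and left-out arrays.

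The genes and lists were chosen with earlier results of these data known. From each list the text names the 3 genes with the smallest p, the brightest, and those called against the direction of most; exceptions are marked. P-values measure the spread between arrays, which for controls is that between pools.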

Additional observations from a re-analysis of the deposited data

How the results depend on the processing

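Adgre1, Timd4, Axl and Mertk kept their direction and stayed under an adjusted p of 0.05 (limma) in every alternative that was run and gave them a value; the stricter filter at the 60th percentile left out Timd4, Tyro3 and Cd209b. Their differences ran from 0.67 to 0.72 for Adgre1, from -1.24 to -1.13 for Timd4, from -0.97 to -0.45 for Axl and from -0.81 to -0.66 for Mertk. When 1 array was left out, Mfge8 ran from -0.24 to -0.16, Cd5l from -0.18 to -0.075, Spic from -0.10 to 0.015 and Tyro3 from -0.065 to 0.17. Mfge8 lost its call without control pool 1-2, Cd5l gained one without control pool 5-6, and the signs of Spic and Tyro3, neither called, turned without control pool 5-6. Cd5l also passed with estimated array weights (-0.157), and the gap between Mertk and Axl turned sign, uncalled, with averaged probe sets (-0.259), where the dim Axl probe set enters. Testing each probe set on its own, which adds tests, gave 4735 higher and 5011 lower probe sets, 8 engulfment genes higher and 2 TAM signalling genes lower. Of the other list genes, Cd47 turned sign with single-transcript probe sets preferred (-0.333), and Rhoa (-0.086) and the uncalled Siglec1 (-0.033) with averaged probe sets. No alternative moved the numbers of members called higher (1 in all) or lower (3 to 5) by over 1.5 times. Control and threat animals share only numbers: deviations of equal-numbered pairs correlated at 0.149, -0.152 and -0.029. With the number pair as a replicate block, 1 member was higher and 4 were lower, as without it, and 3085 and 2860 of all genes. Depth of signal limits Gas6, Cd209b, Tyro3 and the threat values of Timd4 and, less so, of Mertk.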

Other observations

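The 3 chains of complement C1q, which binds dying cells and is made by resident macrophages, did not all pass the test; they were singled out after their values were seen. C1qa averaged 6.34 in threat mice and 6.95 in control pools and fell by 0.61 (limma adjusted p = 4.33e-06). C1qc averaged 5.99 in threat mice and 6.28 in control pools and fell by 0.30 (limma adjusted p = 0.00827), a call that was lost without control pool 3-4 (-0.22, limma adjusted p = 0.0545). C1qb averaged 7.55 in threat mice and 7.40 in control pools, with overlapping groups (limma adjusted p = 0.0768). Its difference of 0.15 was opposite in sign to those of C1qa and C1qc. C1qb passed as higher without control pool 3-4 (0.20, limma adjusted p = 0.043). It also passed with averaged probe sets (0.147, limma adjusted p = 0.0342) and with quantile normalization (0.176, limma adjusted p = 0.0391). The mannose receptor gene Mrc1, also singled out afterwards, fell by 1.28 (limma adjusted p = 5.83e-06), and the haemoglobin receptor gene Cd163 by 0.67 (limma adjusted p = 1.75e-04). Cd163 averaged 3.08 in threat mice and 3.75 in control pools, near the filter value of 2.66, so the size of its fall is approximate. Siglec1 and Marco, genes of marginal zone macrophages, differed by 0.11 and -0.12 without a call (limma adjusted p = 0.404 and 0.16).

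Genes of the lipid response beside Abcg1 were also singled out after their values were seen. Apoe fell by 0.42 (SE 0.052, limma adjusted p = 2.52e-05) and Mylip by 0.44 (SE 0.056, limma adjusted p = 3.28e-05), whereas the exporter gene Abca1, another target of LXR, differed by -0.05 (SE 0.075, limma adjusted p = 0.617). The LXR gene Nr1h3 itself differed by 0.12 (SE 0.071, limma adjusted p = 0.203).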
